A study of Mus musculus with 20 samples.

Results

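The 10 mRNAs described here encode the proteins that make microRNAs and carry out microRNA silencing: Drosha, Dgcr8, Xpo5, Dicer1, Ago1, Ago2, Ago3, Tnrc6a, Tnrc6b and Tnrc6c. They were taken by name after the 37991 Ensembl gene IDs of the count tables had been matched to mouse symbols, and all 10 were found and passed the filter on low counts in every comparison. The cells were mouse embryonic stem cells (ESCs) in which Cnot3, a subunit of the CCR4-NOT deadenylase, can be deleted. KO cells were Cnot3 conditional knockout (cKO) ESCs given 0.1 µM 4-hydroxytamoxifen (4OHT), and WT cells were described as the same ESCs given DMSO, the solvent. RNA was sequenced from whole cells (total RNA) and from the polysome fraction (mRNA carrying several ribosomes) on day 3 of 4OHT. In a separate experiment on day 2, actinomycin D, which blocks transcription, was added at 10 µg/ml and whole-cell RNA was taken at 0, 4 and 8 h. Each of the 10 groups had 2 biological replicates, 20 libraries in all, and the strain label of all 20 was C57BL/6. The sample labels name WT of the day 3 libraries as E14Tg2a ESCs, while both arms of the actinomycin D series are named Cnot3 cKO ESCs. If those labels hold, cell line and deletion cannot be told apart on day 3, and only the actinomycin D series compares arms of a single line.

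In the nucleus, Drosha and its RNA-binding partner Dgcr8 form the Microprocessor, which cuts hairpins out of primary microRNA transcripts. Xpo5 (exportin 5) carries the hairpins to the cytoplasm, where Dicer1 trims them to the mature duplex that is loaded into an Argonaute protein. Argonautes bind Tnrc6 (GW182) proteins, which recruit the CCR4-NOT deadenylase to the target mRNA, so the deleted gene codes for a part of the machinery that these scaffolds call on. Mouse ESCs without Dgcr8 or Dicer1 survive but differentiate poorly, and in ESCs with both the miR-290 cluster is a major source of microRNAs.

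The microRNAs below are shown because matches to their seeds were searched in the 3′UTRs of the 10 mRNAs, and because reads over the miR-290 hairpins are described further on. Sequences and positions are from RefSeq (GRCm38.p6), written 5′ to 3′, with the seed (bases 2 to 8) in capitals. The miR-290 cluster lies on chromosome 7.
mmu-miR-291a-3p: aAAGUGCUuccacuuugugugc
mmu-miR-294-3p: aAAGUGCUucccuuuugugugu
mmu-miR-295-3p: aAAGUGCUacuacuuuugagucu
mmu-miR-291b-3p: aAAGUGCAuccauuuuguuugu
mmu-miR-290a-3p: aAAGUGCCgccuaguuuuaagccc
mmu-miR-293-3p: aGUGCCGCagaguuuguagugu
mmu-miR-17-5p: cAAAGUGCuuacagugcagguag
mmu-let-7g-5p: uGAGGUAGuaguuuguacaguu
The miR-291a, miR-294 and miR-295 arms share 1 seed. Those of miR-291b and miR-290a differ from it in the last seed base, and miR-293-3p and let-7g-5p have seeds of their own. The seed of miR-17-5p has the letters AAGUGC in common with the first group, shifted by a base.

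Libraries held 27664391 to 35170012 gene counts in total RNA, 13832829 to 16688555 in polysomes and 14513891 to 33262905 in the actinomycin D series. Cnot3 itself had 7.32 and 8.11 CPM (counts scaled to the size of the library) in KO total RNA against 46.1 and 47.0 CPM in WT, and 11.4 and 11.9 CPM in KO at 0 h against 107 and 109 CPM in WT. Its log2 change was -3.21 ± 0.069 (standard error, SE) at 0 h, -2.59 ± 0.16 in day 3 total RNA and -2.45 ± 0.15 in day 3 polysomes. The 2 WT polysome replicates stood apart from each other: chi-square per degree of freedom between them was 70.8, against 1.27 to 11.2 for the other pairs, and mitochondrial mRNAs took 5.02% of replicate 2 and 1.38% of replicate 1. All 8 ESC markers were detected in all groups, with a summed level of 3221 to 3418 CPM in KO and 6368 to 6975 CPM in WT in total RNA. At 0 h the sums were 3324 to 3338 CPM in KO and 4992 to 4993 CPM in WT. The 8 trophectoderm markers summed to 611 to 632 CPM in KO and 176 to 183 CPM in WT in total RNA, and to 243 to 260.4 CPM in KO and 142 to 153 CPM in WT at 0 h. The 8 feeder fibroblast markers summed to 41.6 to 47.0 CPM in KO and 22.6 to 25.6 CPM in WT in total RNA, and the 6 primitive endoderm markers to 50.1 to 57.8 CPM in KO and 65.2 to 69.7 CPM in WT. At 0 h the primitive endoderm markers ran the other way, with 24.6 to 24.7 CPM in KO and 19.8 to 21.1 CPM in WT. The feeder markers summed at 0 h to 42.5 CPM in both KO libraries and to 27.3 to 27.5 CPM in WT. No marker was at 0 in all 20 libraries. The part of these shifts in the results below was not tested, and in bulk RNA fewer cells with a transcript and less of it per cell cannot be told apart.

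Per kilobase of annotated exon, the Microprocessor enzyme was the most abundant of the 10 mRNAs at 0 h and on day 3, and Ago3 the least. At 0 h Drosha had 68.1 ± 2.97 CPM per kb in KO and 72.4 ± 1.52 CPM per kb in WT (mean ± SD, n = 2 each), and Xpo5 had 25.4 ± 0.96 CPM per kb in KO and 26.5 ± 0.21 CPM per kb in WT. The next 6 mRNAs lay close together, from 6.09 CPM per kb (Tnrc6c) to 10.2 CPM per kb (Ago1) in KO and from 10.2 CPM per kb (Dgcr8) to 14.2 CPM per kb (Ago1) in WT. In this band Ago1 and Ago2 did not differ beyond their spread in WT (14.2 ± 1.00 and 13.5 ± 1.22 CPM per kb), and Tnrc6a (10.6 ± 0.58 CPM per kb) did not differ beyond its spread from Tnrc6c (10.8 ± 0.18) or Dgcr8 (10.2 ± 0.23), while Tnrc6c was above Dgcr8 by more than theirs. Tnrc6b stood at 2.99 ± 0.11 CPM per kb in KO and 3.12 ± 0.20 CPM per kb in WT, and Ago3 at 1.15 ± 0.10 CPM per kb in KO and 1.20 ± 0.13 CPM per kb in WT. On day 3 the ends of the order were the same, with Drosha at 35.4 ± 1.50 CPM per kb in KO and 44.1 ± 0.23 CPM per kb in WT, and Ago3 at 1.83 ± 0.18 CPM per kb in KO and 1.76 ± 0.13 CPM per kb in WT. After 8 h of actinomycin D in KO, Tnrc6b was the lowest, with 1.01 and 0.969 CPM per kb, below Ago3 with 1.44 and 1.28 CPM per kb. These levels use all annotated exons of a gene, so mRNAs with long exons that a cell leaves out read too low.

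**Figure D1:**
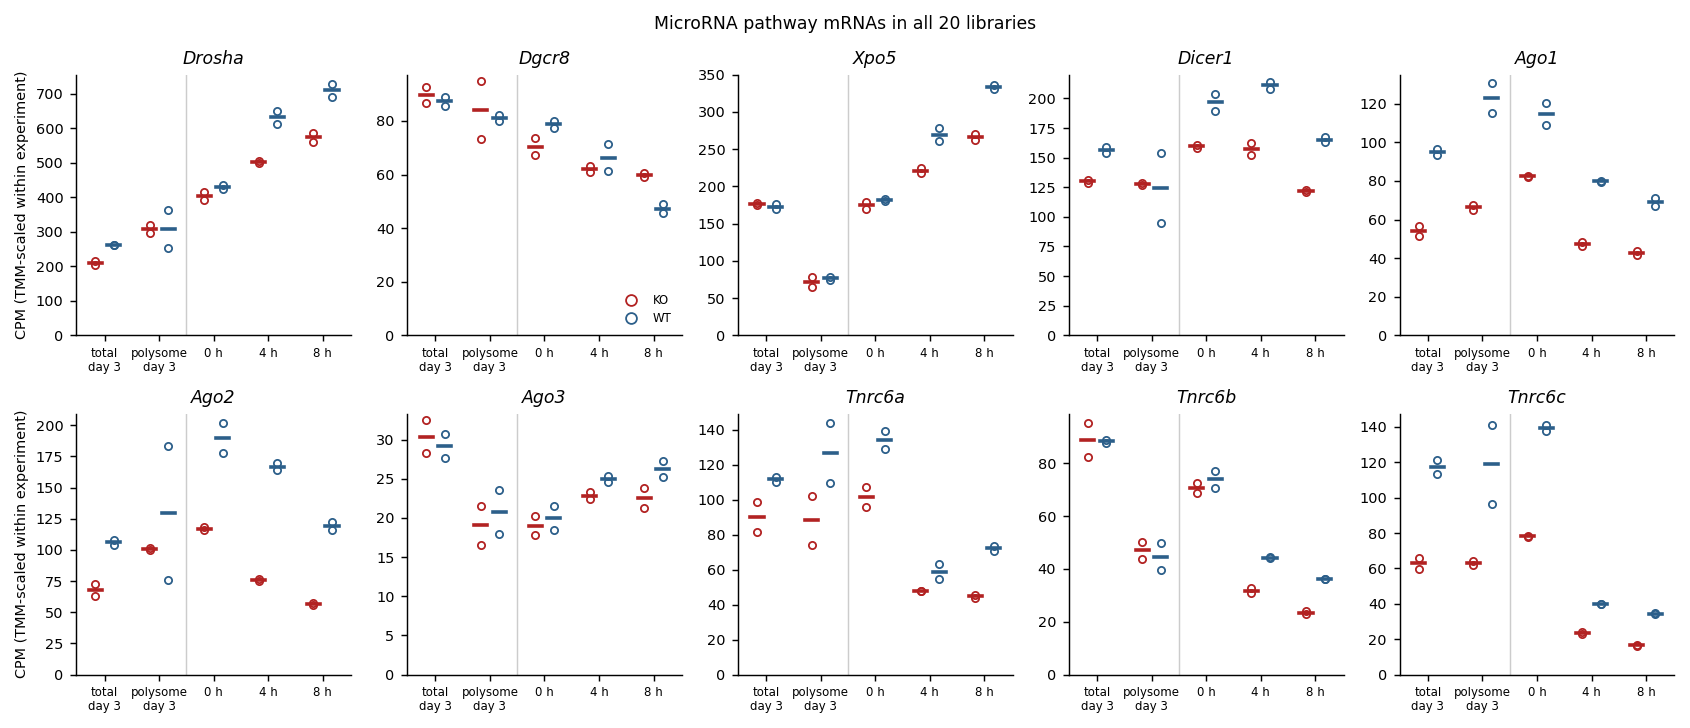
CPM of each mRNA in all 20 libraries (y axis, from 0, TMM-scaled within each experiment; x axis, total and polysome RNA of day 3, then 0, 4 and 8 h of actinomycin D). Open circles are libraries and bars are means of 2, KO in red to the left of WT in blue. Ago1, Tnrc6a and Tnrc6c have both KO circles below both WT circles in all 5 settings. The share of all genes with such separate circles was not counted. The WT polysome circles of Ago2 lie at 183 and 75.7 CPM.

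In whole-cell RNA, the effector mRNAs Ago1 and Tnrc6c were lower in KO on both days, and no member was called higher. Of the 10 mRNAs, 2 were lower in KO total RNA on day 3 at an adjusted p under 0.05 (edgeR's quasi-likelihood test, Benjamini-Hochberg over all genes), and 0 were higher. Of all 18303 genes tested, 12.2% were called lower and 16.0% higher. At 0 h on day 2, 7 members were lower and 0 higher, against 32.9% of 15823 genes lower and 29.8% higher. The median log2 change of the 10 was -0.29 in total RNA, where that of all genes was 0.013, and -0.23 at 0 h, where that of all genes was -0.014. The calls at 0 h depend on the scaling. Scaled to 79 ribosomal protein mRNAs, the median of all genes moved to 0.41, and 2 members were called lower and 6 higher. Of the 15823 genes, 1129 were then called lower and 10232 higher. The values of all 10 members stayed below the median of all genes. With the same scaling of the day 3 libraries the median of all genes in total RNA was 0.59. There 0 members were lower and 4 were higher (Dgcr8, Xpo5, Ago3 and Tnrc6b), beside 299 lower and 8792 higher of the 18303 genes. Ago1 (-0.24) and Tnrc6c (-0.33) kept their sign but lost the call. Replicates are 2 per group, so the p-values rest on the spread between 2 cultures and on what genes of like abundance share.

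**Figure D2:**
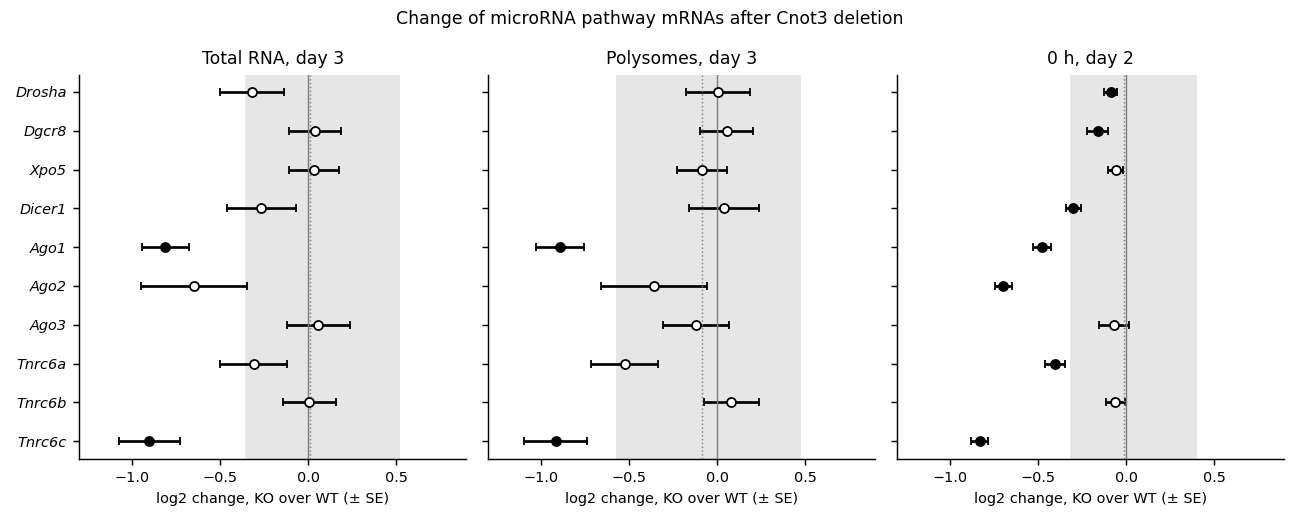
Log2 change of each mRNA, KO over WT (x axis), in total RNA of day 3, polysomes of day 3 and at 0 h of day 2, with SE bars; filled circles passed an adjusted p under 0.05 in edgeR. The grey band holds the middle of all tested genes from the lower to the upper quartile and the dotted line is their median; Ago1 and Tnrc6c are filled and left of the band in all 3 panels with TMM scaling, while with ribosomal protein scaling the sign of 7 members at 0 h is the opposite.

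Among the nuclear factors, Drosha (chr15:12824815-12935291, plus strand, GRCm38) had 204 and 216 CPM in KO total RNA against 261 and 263 CPM in WT. At 0 h it had 392 and 417 CPM in KO against 436 and 423 CPM in WT. KO libraries were below WT libraries at both days, by a small margin at 0 h. The log2 change was -0.32 ± 0.18 in total RNA (edgeR, adjusted p = 0.208) and -0.088 ± 0.039 at 0 h (adjusted p = 0.0485), and the call at 0 h was lost without either replicate 1 (adjusted p = 0.367 without KO replicate 1 and 0.209 without WT replicate 1) and without KO replicate 1 of 8 h (0.0538). With library totals its sign turned (0.065, adjusted p = 0.0865). Dgcr8 (chr16:18253948-18289246, minus strand) had 86.6 and 92.5 CPM in KO total RNA against 88.9 and 85.7 CPM in WT, so that the groups overlapped. At 0 h it had 67.2 and 73.6 CPM in KO against 80.0 and 77.5 CPM in WT, a log2 change of -0.16 ± 0.058 (edgeR, adjusted p = 0.0154), not called without KO replicate 1 (-0.10, adjusted p = 0.221) or WT replicate 1 (-0.15, adjusted p = 0.0861). With library totals the value of Dgcr8 at 0 h was -0.0085 (adjusted p = 0.905). Dgcr8 shares its locus with Trmt2a on the opposite strand, and the sources used here do not give the strand setting of the counting.

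Xpo5 (chr17:46202782-46243598, plus strand), the hairpin exporter, had 175 and 178 CPM in KO total RNA against 169 and 176 CPM in WT, with overlapping groups and a log2 change of 0.034 ± 0.14 (edgeR, adjusted p = 0.879). At 0 h Xpo5 had 169.6 and 179 CPM in KO and 183 and 181 CPM in WT, with both KO values below both WT values. The log2 change of -0.060 ± 0.041 was not called (edgeR, adjusted p = 0.20), but the call and the sign depend on the scaling. Xpo5 was called lower in KO with RLE, the size factors of DESeq2, in edgeR (-0.20, adjusted p = 8.19e-05) and with DESeq2 itself (-0.20, adjusted p = 0.000113), and higher with library totals (0.094, adjusted p = 0.0252) and ribosomal protein scaling (0.36, adjusted p = 3.64e-10). Dicer1 (chr12:104687742-104751952, minus strand), the cytoplasmic processing enzyme, had 129 and 131 CPM in KO total RNA against 154 and 159 CPM in WT. KO libraries of Dicer1 were below WT on both days, with 158 and 161 CPM in KO against 204 and 189.6 CPM in WT at 0 h. Its log2 change was -0.27 ± 0.20 in total RNA (edgeR, adjusted p = 0.325) and -0.30 ± 0.042 at 0 h (adjusted p = 6.88e-08).

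Of the Argonautes, Ago1 and Ago2 were at lower levels in KO and Ago3 had overlapping groups. Ago1 (chr4:126435012-126468583, minus strand), an Argonaute that acts mainly through TNRC6 proteins, had 51.7 and 56.7 CPM in KO total RNA against 93.6 and 96.8 CPM in WT, which makes the KO mean 56.9% of the WT mean. At 0 h Ago1 had 82.3 and 82.7 CPM in KO against 121 and 109 CPM in WT, a KO mean of 71.8% of WT. The groups were far apart on both days, with log2 changes of -0.81 ± 0.13 in total RNA (edgeR, adjusted p = 0.00201) and -0.48 ± 0.052 at 0 h (adjusted p = 2.05e-10). With ribosomal protein scaling the value at 0 h was -0.057 and the call was lost (adjusted p = 0.346). Ago2 (chr15:73095844-73184935, minus strand), the Argonaute that can cleave its target, had 63.4 and 72.3 CPM in KO total RNA against 104 and 108 CPM in WT. At 0 h Ago2 had 118 and 116 CPM in KO against 202 and 178 CPM in WT, a KO mean of 61.7% of WT. KO was below WT on both days, with a log2 change of -0.70 ± 0.048 at 0 h (edgeR, adjusted p = 6.61e-16).

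In total RNA the log2 change of Ago2 was -0.65 ± 0.30 and missed the threshold (edgeR, adjusted p = 0.128). That fit pools the spread of all 8 day 3 libraries, and the WT polysome replicates of this gene differ widely. In an edgeR fit of the 4 total libraries alone Ago2 was called (-0.65, adjusted p = 2.43e-06), and so were Tnrc6a (-0.31, adjusted p = 0.00789), Dicer1 (-0.27, adjusted p = 0.000641) and Drosha (-0.32, adjusted p = 0.000195), which made 6 members lower. The calls rose for all genes as well, to 5467 lower and 5469 higher, against 2225 lower and 2931 higher in the joint fit. Ago2, Dicer1 and Drosha were also called in total RNA when either WT polysome replicate was left out of the joint fit. Ago2 overlaps Chrac1 on the opposite strand. Ago3 (chr4:126331704-126429556, minus strand), the neighbour of Ago1 on chromosome 4, had 28.3 and 32.5 CPM in KO total RNA against 30.7 and 27.7 CPM in WT, and 17.9 and 20.2 CPM in KO at 0 h against 21.5 and 18.4 CPM in WT. Its groups overlapped on both days and neither log2 change passed (0.058 ± 0.18 and -0.069 ± 0.084; edgeR, adjusted p = 0.831 and 0.487). At 0 h Ago3 was called lower with RLE (-0.20, adjusted p = 0.0301) and higher with ribosomal protein scaling (0.35, adjusted p = 0.000375), which also called it higher in total RNA (0.64, adjusted p = 0.013).

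The TNRC6 scaffolds differed among themselves in the same way: Tnrc6c was lower in KO, Tnrc6b had overlapping groups, and Tnrc6a was between them. Tnrc6c (chr11:117654289-117763439, plus strand) had 59.9 and 65.8 CPM in KO total RNA against 114 and 121 CPM in WT, and 78.0 and 78.4 CPM in KO at 0 h against 141 and 138 CPM in WT. These groups were clearly separate, with KO means of 53.5% of WT in total RNA and 56.1% at 0 h. The log2 changes were -0.90 ± 0.18 in total RNA (edgeR, adjusted p = 0.00466) and -0.83 ± 0.049 at 0 h (adjusted p = 6.96e-18). At 0 h, 4.09% of all tested genes had a lower value than Tnrc6c and 6.37% had a lower value than Ago2. Tnrc6a (chr7:123123885-123195296, plus strand) had 81.5 and 98.8 CPM in KO total RNA against 113 and 110.4 CPM in WT, and 95.8 and 107 CPM in KO at 0 h against 139.6 and 129 CPM in WT. KO libraries were below WT on both days, and the log2 change passed at 0 h (-0.41 ± 0.056; edgeR, adjusted p = 8.83e-08) but not in total RNA (-0.31 ± 0.19, adjusted p = 0.239). Tnrc6b (chr15:80711313-80941085, plus strand) had 82.4 and 95.1 CPM in KO total RNA against 88.7 and 87.8 CPM in WT, and 72.7 and 68.9 CPM in KO at 0 h against 77.2 and 70.5 CPM in WT. The groups overlapped on both days (log2 0.0077 ± 0.15 and -0.060 ± 0.053; edgeR, adjusted p = 0.976 and 0.325). At 0 h Tnrc6b was called lower with RLE (-0.20, adjusted p = 0.00125) and DESeq2 (-0.20, adjusted p = 0.0151) and higher with ribosomal protein scaling (0.36, adjusted p = 1.67e-07).

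After transcription was blocked, the scaffolds, Ago1, Ago2 and Dgcr8 had slopes below 0 in both arms, while Drosha and Xpo5 gained in share. The slope is the log2 CPM per hour over 0, 4 and 8 h. No spike-in is named in the sources used here, so a slope is relative to all mRNA of the library and a positive one means slower loss than the rest, not synthesis. In KO, 7 members had a slope below 0 and 2 above 0 at an adjusted p under 0.05, against 36.3% and 31.6% of the 15823 genes tested. In WT, 6 were below and 3 above, against 38.8% and 35.0% of all genes. The median slope of the 10 was -0.084 in KO and -0.088 in WT, and that of all genes was -0.0026 in KO and -0.0062 in WT. Scaled to ribosomal protein mRNAs, which themselves gained in share, the median of all genes became -0.11 in KO and -0.15 in WT. All 10 members were then called as lost in both arms, and so were 12567 of the 15823 genes in KO and 12693 in WT.

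**Figure D3:**
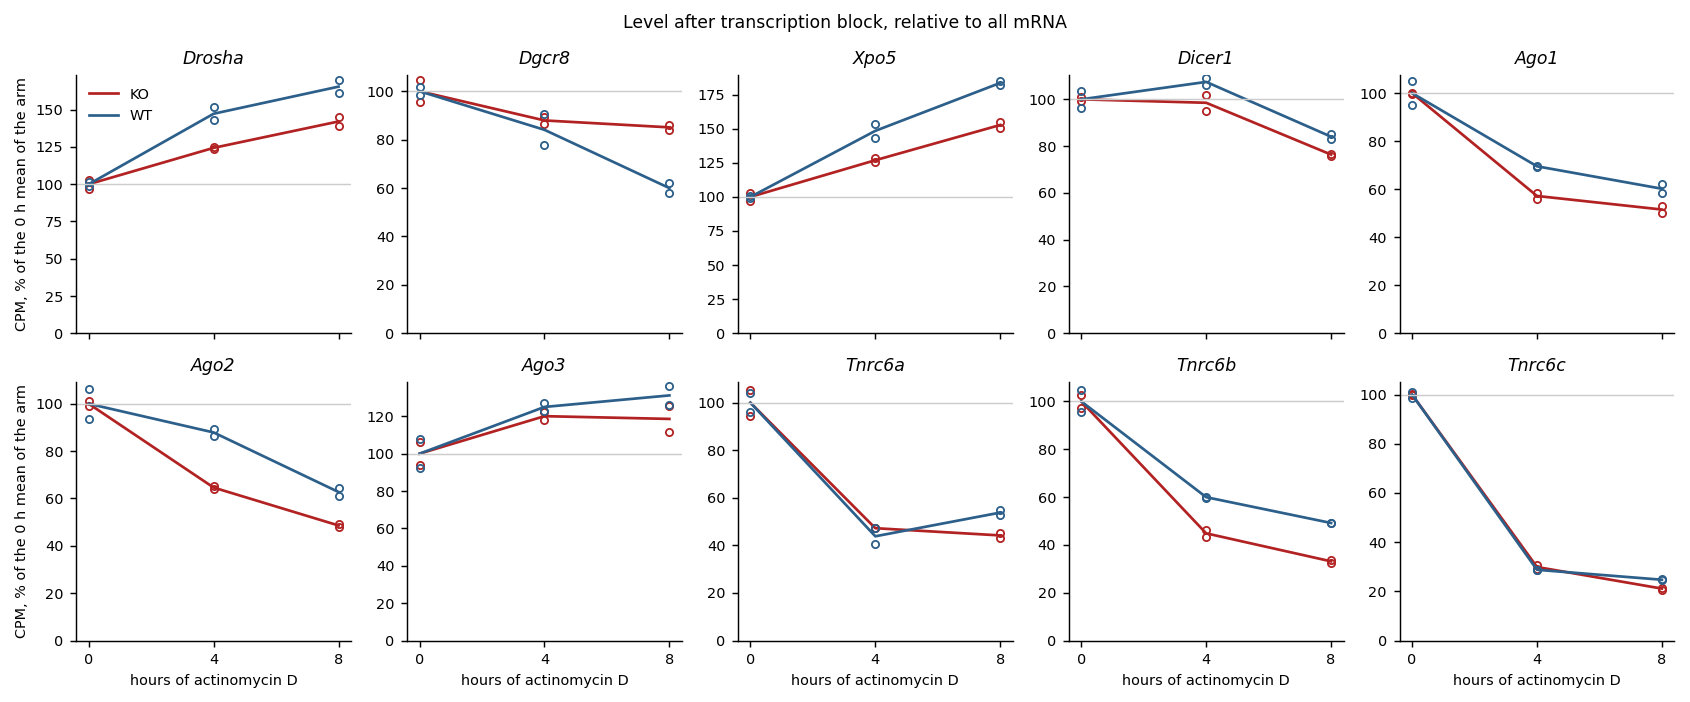
Level of each mRNA after 0, 4 and 8 h of actinomycin D (x axis) as a percentage of the 0 h mean of the same arm (y axis, from 0), KO in red and WT in blue; circles are libraries and lines join means of 2. Tnrc6c is at 21.1% in KO and 24.7% in WT at 8 h, while Xpo5 is at 153% in KO and 184% in WT, both relative to all mRNA; scaled to ribosomal protein mRNAs, Drosha, Xpo5 and Ago3 have negative slopes.

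Tnrc6c was the member lost fastest. It had 24.0 and 22.8 CPM at 4 h and 16.2 and 16.8 CPM at 8 h in KO, against 40.1 and 40.1 CPM at 4 h and 34.6 and 34.2 CPM at 8 h in WT. Most of the loss came in the first interval in both arms, to 29.9% of 0 h in KO and 28.8% in WT, and at 8 h 21.1% was left in KO and 24.7% in WT. Its slope was -0.28 ± 0.047 in KO (edgeR, adjusted p = 0.00063) and -0.25 ± 0.045 in WT (adjusted p = 0.000733). Tnrc6b had 32.8 and 30.7 CPM at 4 h and 23.9 and 22.9 CPM at 8 h in KO, against 44.4 and 44.2 CPM at 4 h and 36.3 and 36.3 CPM at 8 h in WT. KO libraries lay below WT at 4 and 8 h though they overlapped at 0 h, and 33.1% was left in KO at 8 h against 49.2% in WT. The slopes of Tnrc6b were -0.20 ± 0.019 in KO (edgeR, adjusted p = 4.51e-06) and -0.13 ± 0.019 in WT (adjusted p = 6.72e-05), and their difference of -0.072 ± 0.027 did not pass (adjusted p = 0.0834). Tnrc6a had 47.8 and 48.0 CPM at 4 h and 43.9 and 45.7 CPM at 8 h in KO, against 63.3 and 54.4 CPM at 4 h and 73.7 and 70.9 CPM at 8 h in WT. Its share fell to 43.8% of 0 h at 4 h in WT and stood at 53.8% at 8 h, so that a straight line describes it poorly, while KO stood at 47.2% and 44.2%. The slopes were -0.15 ± 0.042 in KO (edgeR, adjusted p = 0.0115) and -0.11 ± 0.040 in WT (adjusted p = 0.0307), and leaving out 1 library of 0 h ended the call in KO (without replicate 2, adjusted p = 0.0619) and in WT (without replicate 1, adjusted p = 0.142, and without replicate 2, adjusted p = 0.112).

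Ago1 and Ago2 were lost at a middle pace and Ago3 was not. Ago2 had 76.5 and 74.7 CPM at 4 h and 57.6 and 56.2 CPM at 8 h in KO, against 164 and 169 CPM at 4 h and 122 and 116 CPM at 8 h in WT. The gap between the arms was wider at 4 and 8 h than at 0 h, with a KO mean of 45.3% of WT at 4 h and 47.8% at 8 h. The slopes of Ago2 were -0.13 ± 0.011 in KO (edgeR, adjusted p = 1.04e-06) and -0.084 ± 0.011 in WT (adjusted p = 1.70e-05), and their difference of -0.046 ± 0.016 missed the threshold (adjusted p = 0.0565). Ago1 had 48.2 and 46.1 CPM at 4 h and 43.6 and 41.4 CPM at 8 h in KO, against 79.7 and 80.1 CPM at 4 h and 71.4 and 66.9 CPM at 8 h in WT. At 8 h 51.5% was left in KO and 60.2% in WT, with slopes of -0.12 ± 0.016 in KO (edgeR, adjusted p = 4.35e-05) and -0.092 ± 0.016 in WT (adjusted p = 0.000252). Ago3 had 23.3 and 22.4 CPM at 4 h and 23.9 and 21.3 CPM at 8 h in KO, against 24.5 and 25.4 CPM at 4 h and 27.2 and 25.2 CPM at 8 h in WT. It stood at 119% of 0 h in KO and 131% in WT at 8 h, and its slope passed in WT (0.049 ± 0.015; edgeR, adjusted p = 0.00803; not without WT replicate 2 of 0 h, adjusted p = 0.0904) and not in KO (0.031 ± 0.015, adjusted p = 0.0804). With library totals the WT slope of Ago3 was not called (0.0072, adjusted p = 0.655).

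Among the processing factors Drosha and Xpo5 gained in share in both arms, and Dicer1 and Dgcr8 lost some of theirs. Drosha had 506 and 500.1 CPM at 4 h and 587 and 562 CPM at 8 h in KO, against 651 and 614 CPM at 4 h and 730.1 and 692 CPM at 8 h in WT. Its share at 8 h was 142% of 0 h in KO and 166% in WT, with slopes of 0.063 ± 0.011 in KO (edgeR, adjusted p = 0.00029) and 0.091 ± 0.011 in WT (adjusted p = 9.89e-06). Xpo5 had 224 and 218 CPM at 4 h and 270.2 and 262 CPM at 8 h in KO, against 279 and 261 CPM at 4 h and 330.3 and 337 CPM at 8 h in WT. Both arms gained at each step and WT gained more, with slopes of 0.076 ± 0.0090 in KO (edgeR, adjusted p = 1.15e-05) and 0.11 ± 0.0091 in WT (adjusted p = 2.03e-07), whose difference of -0.033 ± 0.013 did not pass (adjusted p = 0.0894). With ribosomal protein scaling these slopes turned to -0.042 (Drosha) and -0.029 (Xpo5) in KO and to -0.053 (Drosha) and -0.034 (Xpo5) in WT, still above the median of all genes. Dicer1 had 152 and 163 CPM at 4 h and 123 and 121 CPM at 8 h in KO, against 208 and 214 CPM at 4 h and 167 and 163 CPM at 8 h in WT. It was near its starting share at 4 h in both arms and at 76.4% in KO and 84.0% in WT at 8 h, and its slope passed in KO (-0.049 ± 0.014; edgeR, adjusted p = 0.00754) but not in WT (-0.031 ± 0.014, adjusted p = 0.0584). The slope difference of Dicer1 between the arms did not pass. In KO its call was lost with RLE in edgeR (-0.035, adjusted p = 0.0587) and with DESeq2 (-0.036, adjusted p = 0.0552). It was also lost without replicate 1 (-0.042) or 2 (-0.040) of 8 h. In WT its slope was called below 0 in edgeR with library totals (-0.073, adjusted p = 0.000249) and no filter (-0.034, adjusted p = 0.023). So it was with ribosomal protein scaling (-0.17) and hours as a factor (-0.031).

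**Figure D4:**
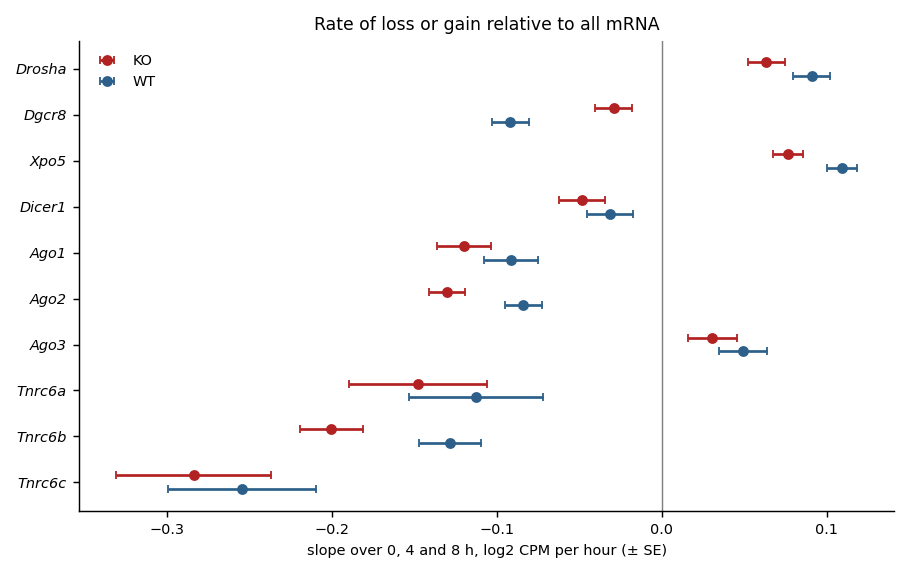
Slope of each mRNA over 0, 4 and 8 h of actinomycin D in log2 CPM per hour (x axis, ± SE), KO in red above WT in blue. The KO point lies left of the WT point for 9 of the 10 mRNAs, Dgcr8 being the exception and the only member whose slope difference passed; with ribosomal protein scaling all 20 points are below 0.

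Dgcr8 was the only member whose slope differed between the arms at the threshold. It had 63.0 and 60.8 CPM at 4 h and 59.2 and 60.5 CPM at 8 h in KO, against 71.2 and 61.1 CPM at 4 h and 48.8 and 45.6 CPM at 8 h in WT. KO was below WT at 0 h, close to it at 4 h and above it at 8 h, when 85.1% of the 0 h level was left in KO and 60.0% in WT. Its slope was -0.029 ± 0.011 in KO (edgeR, adjusted p = 0.0321) and -0.092 ± 0.011 in WT (adjusted p = 7.87e-06). The KO slope lost its call with RLE (-0.016, adjusted p = 0.22), with DESeq2 (-0.017, adjusted p = 0.261) and without KO replicate 1 or 2 of 0 h (adjusted p = 0.0521 and 0.222) or of 8 h (0.0895 and 0.0615). The difference was 0.063 ± 0.016 log2 per hour (edgeR, adjusted p = 0.015), so that 1 of the 10 members was called slower in KO and 0 were called faster, against 10.2% of all genes called higher and 8.78% called lower. It was larger with ribosomal protein scaling (0.10, adjusted p = 0.00067). Leaving out 1 library put it just outside the threshold for KO replicate 1 of 0 h (adjusted p = 0.0538), KO replicate 1 or 2 of 8 h (0.0501 and 0.0564) and WT replicate 2 of 8 h (0.0535). The slope difference was negative for the other 9 members, with a median over the 10 of -0.029 against -0.013 for all genes, but with ribosomal protein scaling 7 of these 9 were positive, all below the median of all genes of 0.025. With time as a factor in place of a line, 7 of the 9 were called lower. That model compares 8 h with 0 h, and it called 3840 of all 15823 genes lower and 2875 higher.

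In polysomes, 2 members were lower in KO, Ago1 and Tnrc6c, and 0 were higher, against 21.1% of genes lower and 15.9% higher. Ago1 had 67.3 and 65.2 CPM in KO polysomes against 131 and 115 CPM in WT, and Tnrc6c had 64.1 and 61.7 CPM in KO against 141 and 96.6 CPM in WT. The KO libraries of both were below the WT libraries, with log2 changes of -0.89 ± 0.14 (edgeR, adjusted p = 0.000774) and -0.92 ± 0.18 (adjusted p = 0.00286). With ribosomal protein scaling in edgeR both calls were lost (Ago1 -0.29, adjusted p = 0.322, and Tnrc6c -0.33, adjusted p = 0.26). It called 3 members higher, Dgcr8, Dicer1 and Tnrc6b, beside 7117 of all genes higher and 909 lower. Tnrc6a had 74.2 and 102 CPM in KO against 109.7 and 144 CPM in WT and came close to the threshold (-0.53 ± 0.19; edgeR, adjusted p = 0.0519). For Ago2 the WT replicates disagreed, with 100.01 and 101.72 CPM in KO inside the WT values of 183 and 75.7 CPM. Its log2 change of -0.36 ± 0.30 (edgeR, adjusted p = 0.379) became 0.41 (adjusted p = 0.00655) without WT polysome replicate 1 and -0.85 (adjusted p = 5.40e-05) without WT polysome replicate 2. Dicer1 was the same kind of case, with 129 and 127 CPM in KO between WT values of 154 and 95.2 CPM, and a log2 change of 0.040 ± 0.20 (edgeR, adjusted p = 0.902) that became 0.42 without WT polysome replicate 1 and -0.26 without WT polysome replicate 2.

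The other 5 members had overlapping groups in polysomes. Drosha had 319 and 296 CPM in KO against 362 and 252 CPM in WT, and Dgcr8 had 73.2 and 94.9 CPM in KO against 79.9 and 82.0 CPM in WT. Xpo5 had 65.1 and 78.5 CPM in KO against 78.1 and 74.3 CPM in WT. Tnrc6b had 43.8 and 50.3 CPM in KO against 49.7 and 39.4 CPM in WT, and Ago3 had 16.5 and 21.6 CPM in KO against 17.9 and 23.5 CPM in WT. None of the 5 passed, the smallest adjusted p being 0.644 for Ago3 (edgeR). Drosha was called higher without WT polysome replicate 1 (0.28, adjusted p = 0.028), and ribosomal protein scaling called Tnrc6b (0.68, adjusted p = 0.0104) and Dgcr8 (0.67, adjusted p = 0.0138) higher. The test of a different change in polysomes and in total RNA (association) called 0 of the 10 members in either direction, against 0.00546% of genes higher and 0.00546% lower, which is 1 gene each way, while 2303 genes had an unadjusted p under 0.05. The largest association values were 0.32 ± 0.26 for Drosha and 0.31 ± 0.28 for Dicer1 (edgeR, adjusted p = 0.622 and 0.675). Total and polysome libraries also differ in reads that fell in no annotated gene, 19.8% to 23.7% against 4.75% to 12.9%. The part of this in association was not tested. Without WT polysome replicate 1, the association values became 1.08 for Ago2, 0.71 for Dicer1 and 0.63 for Drosha, against 0.29, 0.31 and 0.32 with all libraries. These values thus depend on the WT replicates.

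Between day 2 and day 3 the KO change differed at the threshold for 1 member, Ago1. The change on day 3 minus that at 0 h was -0.30 ± 0.082 on the log2 scale (edgeR, adjusted p = 0.0321), which made 1 member lower and 0 higher, against 2.29% of 19071 genes lower and 2.54% higher. The call was lost with library totals (-0.23, adjusted p = 0.117), with ribosomal protein scaling (-0.18, adjusted p = 0.802) and with DESeq2 (-0.35, adjusted p = 0.0546). It was also lost without KO replicate 1 of total RNA (-0.24, adjusted p = 0.114), KO replicate 1 or 2 of 0 h (adjusted p = 0.0771 and 0.0798) or WT replicate 2 of 0 h (-0.24, adjusted p = 0.212). Tnrc6c had nearly the same value on both days (difference -0.033 ± 0.077, adjusted p = 0.89). Drosha, which did not pass (-0.19 ± 0.069; edgeR, adjusted p = 0.111), was called lower with RLE (-0.24, adjusted p = 0.0373), with no filter (-0.28, adjusted p = 0.00186) and without WT replicate 1 or 2 of total RNA (adjusted p = 0.0094 and 0.0115). Dgcr8 (0.23 ± 0.079; edgeR, adjusted p = 0.0954) was called higher with library totals (0.31, adjusted p = 0.0206). The days also differ in experiment and in the WT cell line label, which cannot be told apart from time. The libraries differ in kind as well. In total RNA 19.8% to 23.7% of reads fell in no annotated gene, against 5.26% to 8.12% in the actinomycin D series. Reads with several alignments were tallied as 10341991 to 15515077 in total RNA libraries and as 0 in those of 0 h. The part of this in the day comparison was not tested.

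The 3′UTRs of these mRNAs span nearly the whole range of the transcriptome. In GENCODE M21 the main transcripts of Ago3, Tnrc6b and Ago2 have 12742, 11609 and 11064 bases of 3′UTR, each longer than 99.9% of the 14251 tested coding genes, whose median is 959 bases. Ago1 has 4491, Dicer1 3851, Tnrc6c 2588, Tnrc6a 2345, Dgcr8 1574 and Xpo5 1327 bases, and Drosha has 169 bases. Ago3, with the longest 3′UTR, and Drosha and Xpo5, with the shortest, had slopes above 0 in both arms, the KO slope of Ago3 not passing, while Tnrc6b and Ago2 had negative ones. Length was not tested against slope. The sites below are shown because they are the matches of ESC microRNA seeds in the 3′UTRs of Tnrc6c and Ago1, the 2 members called lower at 0 h, in polysomes and in total RNA with TMM scaling. Capitals mark the match, and bases are of the mRNA strand (GENCODE M21, GRCm38).
Tnrc6c, miR-290a seed match at base 289 of the 3′UTR: ctatcatgaagGGCACTTttcagattgtgg
Tnrc6c, seed match of miR-291a, miR-294 and miR-295 at base 1283: gcggccggccgAGCACTTggacgtggtggt
Ago1, miR-290a seed match at base 678: taaggcactatGGCACTTagctctgaggtg
Ago1, miR-17 seed match at base 967: cattgacatttGCACTTTcagacgtgacaa
The letters searched on the mRNA strand were AGCACTT for miR-291a, miR-294 and miR-295, GGCACTT for miR-290a, GCACTTT for miR-17 and CTACCTC for let-7, and the first 2 can overlap GCACTTT by 6 letters, as they do at base 289 of Tnrc6c. In the first 1000 bases of the 3′UTR, which 6928 genes reach, AGCACTT was present in 11.7% of genes, GGCACTT in 6.55%, GCACTTT in 10.5% and CTACCTC in 6.97%. In that window Ago1, Tnrc6c and Dicer1 held GGCACTT, Ago1, Tnrc6a and Tnrc6c held GCACTTT, and no member held AGCACTT or CTACCTC. Over whole 3′UTRs Ago3 had 3 matches to AGCACTT and Tnrc6b 2, and Ago2 had 3 to CTACCTC, the let-7 match, all beyond base 1000. Dgcr8, Drosha and Xpo5 had none of the 4 motifs. ATTTA, a pentamer of AU-rich elements, occurs in 70.5% of these windows and was found 5 times in that of Ago2, against 2 times each in Tnrc6a, Tnrc6b and Dicer1.

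Dgcr8 mRNA also carries a microRNA hairpin of its own. Mir1306 (chr16:18284239-18284317, minus strand, GRCm38) lies within a coding exon of Dgcr8, and its mature arms are shown because reads from the hairpin and from the mRNA cannot be told apart by position.
mmu-miR-1306-5p: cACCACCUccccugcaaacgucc
mmu-miR-1306-3p: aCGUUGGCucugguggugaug
The Mir1306 locus had 0 counts in all 20 libraries. A read there also overlaps the Dgcr8 exon on the same strand, and HTSeq can tally such a read as ambiguous. Ambiguous reads are assigned to no gene, so the 0 cannot show whether reads from the hairpin were present.

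The partners of the pathway changed in both directions, with the Lin28 pair and Mov10 the furthest down. Of 12 biogenesis partners, 3 were lower and 0 higher in KO total RNA and 8 were lower and 3 higher at 0 h, where all genes had 12.2% lower and 16.0% higher in total RNA and 32.9% lower and 29.8% higher at 0 h. With a library left out, the biogenesis partners called in total RNA were 2 to 8 lower and 0 to 3 higher. Lin28a, which blocks the maturation of let-7, had 194 and 192 CPM in KO total RNA against 552 and 551 CPM in WT, with both KO libraries far below WT (log2 -1.52 ± 0.20; edgeR, adjusted p = 0.000677). At 0 h Lin28a changed by -1.36 ± 0.041 (adjusted p = 2.92e-27) and its relative Lin28b by -1.05 ± 0.074 (adjusted p = 1.95e-15). The slope of Lin28a was 0.00021 ± 0.0089 in KO and 0.10 ± 0.0089 in WT, a difference of -0.10 ± 0.013 (edgeR, adjusted p = 0.000172). Zcchc11 (Tut4), which adds uridines to let-7 precursors bound by Lin28a, had the opposite slope difference, 0.078 ± 0.014 (adjusted p = 0.00212).

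Of 11 effector partners, 3 were lower and 1 higher in KO total RNA and 6 were lower and 3 higher at 0 h, beside the same shares of all genes. With a library left out, 1 to 5 effector partners were lower in total RNA. Mov10, an RNA helicase found with Argonautes, had 65.8 and 66.8 CPM in KO total RNA against 202 and 195 CPM in WT, a log2 change of -1.59 ± 0.14 (edgeR, adjusted p = 0.000135). Mov10 changed by -1.09 ± 0.041 at 0 h (adjusted p = 7.18e-24), and the change on day 3 minus that at 0 h was -0.46 ± 0.071 (adjusted p = 0.000177). Ddx6, a helicase that acts between CCR4-NOT and decapping, changed by -0.72 ± 0.043 at 0 h (edgeR, adjusted p = 6.74e-18). Ago4, the Argonaute that is not among the 10, went the other way: it had 3.04 and 3.19 CPM in KO total RNA against 1.16 and 1.20 CPM in WT. All KO values of Ago4 were above WT in total RNA and at 0 h, at a very low level, with log2 changes of 1.40 ± 0.23 in total RNA (edgeR, adjusted p = 0.00186) and 1.57 ± 0.28 at 0 h (adjusted p = 5.59e-06), the value at 0 h being named after it was seen. Of 7 turnover factors, 1 was higher and 0 lower in KO total RNA and 1 higher and 2 lower at 0 h. The one higher was Zswim8, which directs Argonautes with certain targets to degradation, at 0.87 ± 0.19 in total RNA (edgeR, adjusted p = 0.00746) and 0.70 ± 0.058 at 0 h (adjusted p = 1.35e-13).

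In polysomes 6 of 12 biogenesis partners were lower and 1 higher, where 21.1% of all genes were lower and 15.9% higher. Of 11 effector partners 2 were lower and 0 higher, and of 7 turnover factors 1 was lower and 1 higher, near the shares of all genes. Lin28a (-1.55 ± 0.20; edgeR, adjusted p = 0.000374) and Mov10 (-1.96 ± 0.14, adjusted p = 2.41e-05) had the smallest p of their lists. Pabpc1, the cytoplasmic poly(A)-binding protein that TNRC6 proteins contact, was lower in KO polysomes (-0.72 ± 0.17; edgeR, adjusted p = 0.00713), and its slope after actinomycin D was 0.10 ± 0.014 in KO and 0.16 ± 0.014 in WT. Association called 0 genes of the 3 lists. The slopes of the partners went in both directions in both arms: in KO 6 biogenesis partners were above 0 and 4 below, and of the effector partners 5 were above and 6 below. In WT 7 biogenesis partners were above 0 and 3 below, and 4 effector partners were above and 5 below. Of all genes 31.6% were above 0 and 36.3% below in KO, and 35.0% above and 38.8% below in WT. Gigyf2, which joins translational repressors to mRNA caps, was lost less fast in KO (-0.11 ± 0.0094) than in WT (-0.19 ± 0.0095), a difference of 0.080 ± 0.013 (edgeR, adjusted p = 0.00107).

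Reads over the hairpins of the miR-290 cluster, a substrate of these proteins, were nearly gone within 4 h of actinomycin D in both arms. These loci were chosen after their values were known, and counts there do not measure the mature microRNAs. At 0 h Mir295 had 47 and 64 counts in KO against 129 and 113 in WT, and Mir294 had 27 and 34 counts in KO against 85 and 78 in WT. At 4 h the 7 loci had 0 to 2 counts in each KO library and 0 to 1 in each WT library, and at 8 h 0 to 1 in KO and 0 to 2 in WT. All 7 slopes were below 0 in both arms, with a median of -1.28 log2 per hour in KO and -1.38 in WT, and 0 of the 7 slope differences passed (edgeR). Slopes to counts of 0 depend on the prior count of the fit and are no measure of rate. At 0 h, 3 of the 7 loci were lower in KO, where 32.9% of all genes were lower. They were Mir293 (-0.91 ± 0.27), Mir294 (-1.01 ± 0.24) and Mir295 (-0.72 ± 0.20), with edgeR adjusted p of 0.00411, 0.000402 and 0.00193. Mir290a had a value above 0 at 0 h (1.12 ± 0.57, edgeR, adjusted p = 0.087), with 10 and 15 counts in KO against 13 and 2 in WT. In total RNA 2 of 7 were lower, Mir290a (-0.95 ± 0.27) and Mir291a (-0.95 ± 0.30), and in polysomes 6 of 7, where WT replicate 2, the library rich in mitochondrial mRNA, had 442 counts at Mir295 and WT replicate 1 had 86. Of all genes 12.2% were lower in total RNA and 21.1% in polysomes, and with a library left out the loci lower were 0 to 7 in total RNA and 3 to 6 in polysomes.

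**Figure D5:**
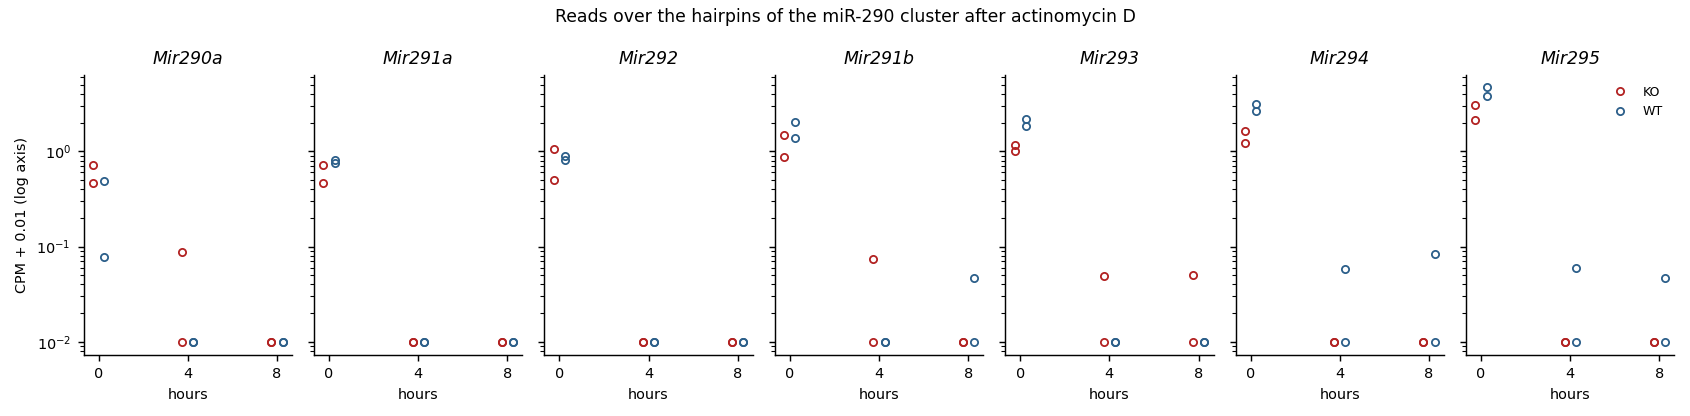
CPM + 0.01 at the 7 hairpin loci of the miR-290 cluster (y axis, log scale) at 0, 4 and 8 h of actinomycin D (x axis); circles are libraries, KO in red to the left of WT in blue, and circles at the bottom are libraries with 0 counts. At 4 and 8 h no locus had more than 2 counts in any library.

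Levels across the 10 groups were compared with those of 9387 protein-coding genes by Pearson correlation of group means of log2(CPM + 0.5), given as a description, since groups share cell state and time course and come from 2 separately scaled experiments. Tnrc6c and Tnrc6a were most like Med1, a Mediator subunit (r = 0.994 and 0.989, n = 10 groups), and like each other (r = 0.978). Ago1 was most like E2f1 (r = 0.975), Ago2 like Ipo13 (r = 0.978) and Tnrc6b like Igf2bp1 (r = 0.978). Xpo5 was most like Efl1 (r = 0.996), Drosha like Eif3b (r = 0.992), Dgcr8 like Mob1a (r = 0.986), Ago3 like Eef1a1 (r = 0.972) and Dicer1 like Frrs1 (r = 0.912). Within the Microprocessor the 2 partners ran in opposite directions over the 10 groups, with r = -0.909 between Drosha and Dgcr8.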

How the data were processed

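Reads per gene were deposited by the authors as 1 table of whole-number counts for each of 20 libraries, unnormalised. Per the submitters' processing notes, reads were aligned with STAR 2.3.0e to mm9 and counted with HTSeq, with no version or strand setting given in the sources used here. The rows in which HTSeq tallies reads without a gene were not analysed: no-feature reads came to 19.8% to 23.7% in total, 4.75% to 12.9% in polysome and 5.26% to 8.12% in actinomycin D libraries. Symbols, positions and 3′UTRs came from GENCODE M21 (GRCm38) by gene ID, which covered 32919 of 37991 IDs.

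Counts were fitted with edgeR 4.0.16 in R 4.3.3 (TMM scaling, genes kept by filterByExpr at min.count 10, the quasi-likelihood F-test with robust = TRUE, Benjamini-Hochberg over all genes tested, threshold 0.05): 8 day 3 libraries together, 12 libraries of the actinomycin D series together, and 8 libraries for day 3 against day 2. SE is the log2 value divided by the root of F. CPM are TMM-scaled within the day 3 and actinomycin D fits separately. The fits were tested on simulated data. Alternatives were RLE, library totals and ribosomal protein scaling, no filter, DESeq2 1.42.0, a replicate block, fewer libraries, and hours as a factor. With a library left out, the remaining one of its group is assumed to vary like the other groups.

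The members, the partner and marker lists and the comparisons were chosen with earlier results of these data known. Named besides the members were Cnot3, up to 4 genes of each partner list with the smallest adjusted p in a comparison (2 are given), and the gene most like each member. The labels give replicates a number and do not say that numbers pair samples, so the main fits took samples as unpaired. Deviations of same-numbered KO and WT samples correlated by 0.33 in total RNA and 0.29 in polysomes over 9575 genes. In the actinomycin D series the values were 0.063 at 0 h, -0.05 at 4 h and 0.047 at 8 h.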

Additional observations from a re-analysis of the deposited data

Results flagged for a closer look

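The KO change or the slope after actinomycin D differed between groups, by the test of the difference itself, for the genes given here. The slope difference was called for 5 of 12 biogenesis partners, 3 of 11 effector partners and 1 of 7 turnover factors, and for some marker genes, of which only the named ones are given. Of all genes, 10.2% were called higher and 8.78% lower in this test. For the slope over 0, 4 and 8 h (KO minus WT, log2 per hour, edgeR with Benjamini-Hochberg adjustment), Dgcr8 had 0.063 ± 0.016 (adjusted p = 0.015), Gigyf2 0.080 ± 0.013 (0.00107) and Zcchc11 0.078 ± 0.014 (0.00212), all lost less fast in KO. Lin28a had -0.10 ± 0.013 (adjusted p = 0.000172), Cnot3 -0.093 ± 0.018 (0.00289), Pabpc1 -0.064 ± 0.020 (0.0409) and Zswim8 -0.053 ± 0.014 (0.0225).

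For the KO change on day 3 minus that on day 2, Ago1 had -0.30 ± 0.082 (edgeR, adjusted p = 0.0321), Mov10 -0.46 ± 0.071 (0.000177), Limd1 0.38 ± 0.10 (0.0185) and Cnot3 0.66 ± 0.11 (0.000328). Day 3 and day 2 libraries also differ in the label of the WT cells and in the experiment, which cannot be told apart from the day. They differ too in the share of reads that fell in no annotated gene.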

How the results depend on the processing

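The number of members called, as lower and higher in KO, changed with the scaling, with the libraries fitted and with the model of time. Scaled to ribosomal protein mRNAs, it was 0 lower and 4 higher in total RNA, 0 and 3 in polysomes, 2 and 6 at 0 h, and 0 lower on day 3 against day 2. With that scaling 10 slopes were below 0 and 0 above in each arm, and the median of all genes was 0.59 in total RNA, 0.49 in polysomes, 0.41 at 0 h and 0.14 between days. At 0 h it turned Ago3 to 0.35, Tnrc6a 0.016, Tnrc6b 0.36, Dicer1 0.12, Drosha 0.33, Dgcr8 0.26, Xpo5 0.36 and Tsn 0.24. It turned the slopes of Ago3, Drosha and Xpo5 to -0.075, -0.042 and -0.029 in KO and to -0.095, -0.053 and -0.034 in WT, and that of Cnot3 in WT to -0.14. Library totals, with medians of all genes of 0.27, 0.15 and 0.14 in total RNA, polysomes and at 0 h, gave 1 member higher at 0 h, turned Drosha to 0.065 and Xpo5 to 0.094 there and the slope of Cnot3 in WT to -0.041, and gave 1 higher and 0 lower between days. RLE gave 2 lower between days and a median of all genes of -0.15 at 0 h.

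The 4 total libraries alone gave 6 members lower. No filter gave 1 member lower in the slope difference and 2 lower between days, DESeq2 0 lower between days, and hours as a factor 7 lower in the slope difference. With each library left out in turn, the members lower were 2 to 5 in total RNA, 2 to 4 in polysomes, 5 to 7 at 0 h, 0 to 2 in the slope difference and 0 to 2 between days. The members higher were 0 to 3 in polysomes, 0 to 3 in association and 0 to 1 in the slope difference. In polysomes Ago2 ranged between -0.85 (without WT replicate 2) and 0.41 (without WT replicate 1), and Dicer1 between -0.26 (without WT replicate 2) and 0.42 (without WT replicate 1). Of all results for single members and Cnot3 under alternatives, 1353 kept their call or lack of one, 40 lost a call and 62 gained one. The other 19 turned in sign with a call before or after. Values not called in either fit count among the 1353 even where their sign turned. Where a value above changed, the cause was not tested.

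With the replicate number as a block, the members lower were 3 in polysomes, Tnrc6a being added (-0.53, adjusted p = 0.0195), 2 in total RNA and 7 at 0 h, and 87 of 88 calls of members and Cnot3 were as without the block. Counts of all genes moved by over 1.5 times under several alternatives: in total RNA 2931 higher and 2225 lower became 8792 and 299 with ribosomal protein scaling, 5169 and 913 with library totals, 5469 and 5467 with the 4 libraries alone, and 603 to 5012 lower with a library left out. In polysomes 2904 higher and 3859 lower became 7117 and 909 with ribosomal protein scaling, 4547 and 2001 with library totals, and 1860 and 1427 with the 4 libraries alone. At 0 h 4722 and 5202 became 10232 and 1129 with ribosomal protein scaling. In association 1 gene each way became 1848 higher and 3111 lower without WT polysome replicate 1. In the slope difference 1614 and 1390 became 2875 and 3840 with hours as a factor, and 1390 lower became 255 with ribosomal protein scaling.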
